A study of Mus musculus with 15 samples.

Results

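The nuclear factor I (NFI) family consists of 4 transcription factor genes, Nfia, Nfib, Nfic and Nfix. They were chosen by name: each is 1 row of that name in both deposited count tables, among 53689 named gene records in the first table (set 1) and 53618 in the second (set 2). NFI proteins share an N-terminal domain through which they pair with each other and bind DNA at a palindrome of the half-site TTGGC. In the mouse, Nfib is needed for lung maturation, Nfia for the start of gliogenesis, Nfix for brain and muscle development and Nfic for tooth root formation. In small cell lung cancer, a neuroendocrine tumour, Nfib is known as an oncogene that is recurrently amplified in mouse tumours and drives metastasis.

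RNA was sequenced from 15 libraries of cultured mouse small cell lung cancer lines, each line grown from cells taken from tissue. Per the labels, every line is Rb1-/- and Trp53-/- and carries MYC (RPM), and the RPMS lines are STAT3-/- as well; the labels do not name the promoter that drives MYC or the Cre that made the deletions. In set 1, the lung lines CMV_426 to CMV_429 are RPM (n = 4), and CMV_228, CMV_231 and CMV_252, also from lung, are RPMS (n = 3). In set 2 all lines are RPMS: CMV_228, CMV_231, CMV_232 and CMV_252 came from lung (n = 4), and CMV_273, CMV_341, CMV_343 and CMV_344 from liver (n = 4), so it has no line with intact Stat3. Each library is a line, and nothing in the labels ties lines to mice, so p-values measure the spread between lines. Levels are counts per 1000000 counts (CPM) on library sizes scaled by the trimmed mean of M values (TMM). Tests are edgeR's quasi-likelihood tests, and their p-values were adjusted by Benjamini-Hochberg over all genes tested.

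The libraries differed in more than genotype. Total counts were 25344949 to 31345631 in set 1 and 9453715 to 18451248 in set 2. The library with the lowest total, liver line CMV_344, had counts for 30341 genes, against 21658 to 24549 in the other set 2 libraries. Stat3 counts followed the labels, at 160 to 209 CPM in RPM lines and 7.83 to 28.5 CPM in all RPMS libraries. Rb1 was at 22.0 to 162 CPM and Trp53 at 0.399 to 26.8 CPM over the 15 libraries although the labels give both as deleted, and counts per gene do not show which exons remain. Myc ranged from 9.66 to 30.6 CPM in the RPM lines, against 0.676 to 3.57 CPM in set 1 RPMS, but in set 2 it was at 17.3 to 75.7 CPM, also in the 3 lines that set 1 holds. The RPM libraries did not show the neuroendocrine profile of the labelled tumour: 15 neuroendocrine markers summed to between 20.3 and 89.0 CPM, against 1418 to 4553 CPM in set 1 RPMS, and Dll3, Chga and Scg3 had 0 counts in 3 of the RPM libraries. The RPM libraries instead carried 16 leukocyte markers at a sum of 3701 to 17101 CPM, against 2.89 to 125 CPM in set 1 RPMS, where 10 to 13 of the markers had 0 counts, Ptprc (CD45) and the complement genes C1qa, C1qb and C1qc among them. In RPMS, 13 of 14 tested leukocyte markers were called lower, beside 15.7% of all genes, and 12 of 15 neuroendocrine markers higher, beside 14.9%. The RPM sum of fibroblast markers was 21.7 to 668 CPM and the RPMS sum 7.16 to 17.0 CPM. Other sums, in the same order, were, for endothelial markers, 6.14 to 333 and 0.645 to 4.08 CPM, for epithelial markers 48.7 to 646 and 1.90 to 95.7 CPM, for alveolar and airway markers 124 to 1342 and 91.6 to 156 CPM, and for hepatocyte markers 40.3 to 222 and 1.78 to 30.2 CPM. Single genes carried some of these sums. Of the 8 hepatocyte markers, 5 to 7 had 0 counts in each RPM library, albumin (Alb) among them, and Trf alone gave 35.6 to 222 CPM. Tat was called higher in RPMS, but this rested on CMV_252, at 30.1 CPM, and Tat was not called without that line. Kdr gave 5.46 to 331 CPM of the endothelial sums in RPM lines. Dcn made up 633.6 CPM of the fibroblast sum of CMV_429. The fibroblast markers did not all move one way: of 8 tested, 5 were called lower without Stat3 and 1, Thy1, was called higher. The log2 fold change of Thy1 was 6.33 (edgeR adjusted p = 0.00755). Thy1 was the top fibroblast marker of each set 1 RPMS library, at 3.10 to 8.46 CPM. In every set 1 comparison below, the genotype and the mixture of cells in the culture cannot be told apart, nor can fewer cells of a type and less RNA per cell.

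Line CMV_252 stood apart from the other RPMS lines. Its summed neuroendocrine markers were at 1418 CPM in set 1 and 204 CPM in set 2, while the other RPMS lung libraries were at 3595 to 4981 CPM and the liver libraries at 3495 to 6085 CPM. Some results are therefore also given without it, and all values not marked so include it. Set 2 showed no such split in leukocyte markers, whose sum was 4.52 to 11.2 CPM in lung and 5.42 to 11.6 CPM in liver lines.

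Nfib lies on chromosome 4 (GRCm38, 82290173 to 82705750, minus strand) and is a long gene with 14957 bases of annotated exon. Nfib was higher in RPMS than in RPM lung lines. In the RPM lines it stood at 34.0 CPM in CMV_426, 73.6 in CMV_427, 177 in CMV_428 and 205 in CMV_429, and in the RPMS lines at 607 CPM in CMV_228, 480 in CMV_231 and 765 in CMV_252. The lowest RPMS library was above the highest RPM library, so the groups did not overlap. The means were 122 ± 81.6 CPM (SD, n = 4) and 617 ± 143 CPM (n = 3), or 2.34 higher on the log2 scale (SE 0.60, 95% interval 0.93 to 3.75, adjusted p = 0.0258 in edgeR).

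Nfix (chromosome 8, 84699876 to 84800344, minus strand) showed the same direction with a wider spread. It stood at 19.7 CPM in CMV_426, 49.4 in CMV_427, 185 in CMV_428 and 57.2 in CMV_429, against 710 CPM in CMV_228, 414 in CMV_231 and 258 in CMV_252. Again no RPM library reached the lowest RPMS library. The means were 77.7 ± 73.1 CPM (SD, n = 4) and 461 ± 230 CPM (n = 3), a log2 difference of 2.57 (SE 0.75, 95% interval 0.79 to 4.34, adjusted p = 0.0400 in edgeR).

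Nfic (chromosome 10, 81396186 to 81455635, minus strand) and Nfia (chromosome 4, 97772734 to 98118874, plus strand) did not pass the test. Nfic was at 97.7, 83.9, 166 and 142 CPM in RPM lines CMV_426 to CMV_429, and at 197 CPM in CMV_228, 221 in CMV_231 and 145 in CMV_252. The CMV_252 library lay within the RPM range, and the log2 fold change was 0.62 (SE 0.29, 95% interval -0.06 to 1.29, edgeR adjusted p = 0.145). Nfia was the one member with a lower mean in RPMS: 19.7, 13.5, 54.2 and 63.2 CPM in the RPM lines in the same order, and 5.90 CPM in CMV_228, 3.17 in CMV_231 and 25.1 in CMV_252. Here too CMV_252 lay inside the RPM range, and the log2 fold change was -1.73 (SE 0.88, 95% interval -3.81 to 0.35, edgeR adjusted p = 0.180).

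Thus 2 of the 4 members were called higher and 0 lower. Of the 17654 genes tested, 30.6% were called, 14.9% of those tested as higher and 15.7% as lower. The groups did not overlap for 2 of 4 members, as for 43% of all genes tested. The median log2 fold change of the 4 members was 1.48, beside -0.01 for all genes. Without CMV_252 the picture changed: Nfia was called lower (log2 fold change -3.06, SE 0.84, edgeR adjusted p = 0.0350), Nfix stayed higher (2.85, SE 0.83, adjusted p = 0.0423) and Nfib missed the threshold (2.14, SE 0.69, adjusted p = 0.0548), where 38.1% of all genes were called. The call of Nfib was also lost without CMV_427, CMV_228 or CMV_231 (edgeR adjusted p = 0.0598, 0.0702 and 0.0563), with fold changes of 2.19 to 2.49 on the log2 scale. The call of Nfix was lost without CMV_426, CMV_427, CMV_429, CMV_228 or CMV_231 (edgeR adjusted p = 0.0501 to 0.130).

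Within the RPM group all 4 members were lower in CMV_426 and CMV_427 than in CMV_428 and CMV_429. Leukocyte markers ran the other way, with sums of 17101 and 11738 CPM in the first pair of lines against 3701 and 5388 CPM in the second. Neuroendocrine markers also ran opposite to the NFI genes, at 89.0 and 55.4 CPM against 36.8 and 20.3 CPM. Summed hepatocyte markers did too, at 197 and 222 CPM against 40.3 and 48.6 CPM, but this was the course of Trf. The other 7 of 8 hepatocyte markers had 0 counts in the first pair, while 5 and 6 markers had 0 counts in the second. Alveolar and airway markers followed the NFI genes, at 165 and 124 CPM against 906 and 1342 CPM. So did summed fibroblast markers (175 and 21.7 against 200 and 668 CPM), of which Dcn gave 123 and 634 CPM in the second pair. Summed epithelial markers did too (50.4 and 48.7 against 53.6 and 646 CPM), but single genes carried the second pair. Cdh1 gave 50.4 CPM in CMV_428 and Krt8 gave 545.9 CPM in CMV_429. Epcam, Cldn4 and Cldn7 went the other way, with counts in the first pair and 0 counts in the second. Endothelial sums of the pairs overlapped. The part of these cell types in the NFI levels was not tested.

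**Figure D1:**
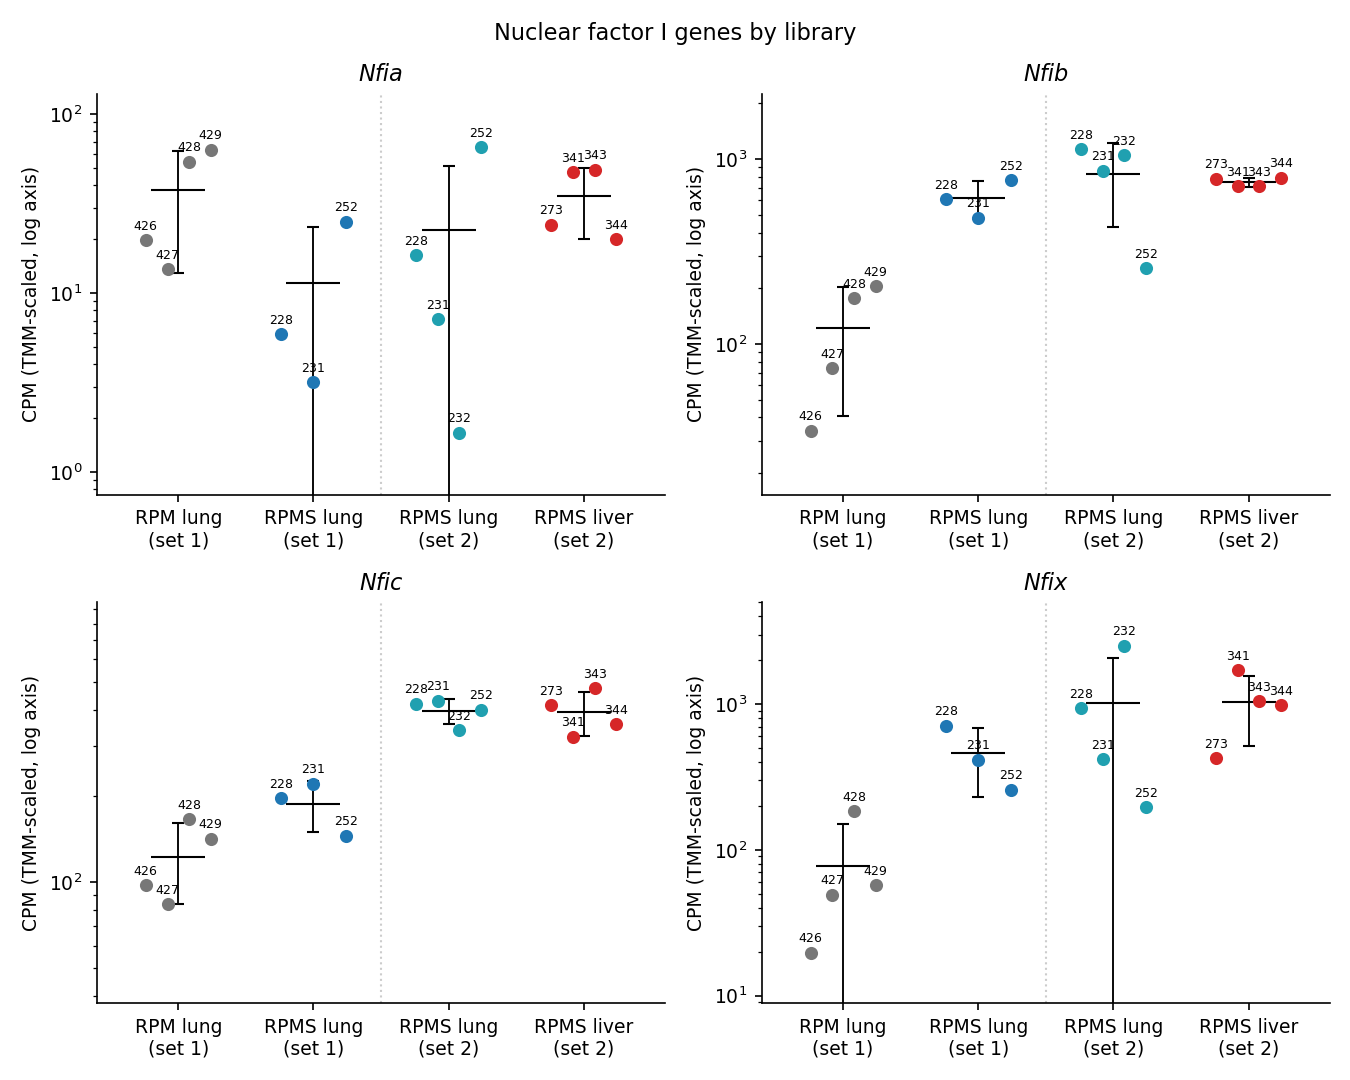
CPM (log axis) of each NFI gene in the 15 libraries, labelled by line number and grouped by genotype in set 1 and by tissue of origin in set 2; bars show the mean and SD, and run off the axis where the SD exceeds the mean. Nfib and Nfix of all RPMS lung libraries of set 1 lie above the RPM libraries, and in set 2 CMV_252 is the lowest for Nfib, at 257 CPM, and the highest for Nfia, at 65.0 CPM.

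RefSeq promoter windows (GRCm38.p6, 250 bases before to 50 after a gene start) were available for 3 of the 4 genes, in 6 entries: 4 starts of Nfix and 1 each of Nfia and Nfic. The GENCODE annotation that gave the gene positions above places the 5′ ends elsewhere: the Nfix and Nfic starts lie 20.3 to 28.5 kb inside the genes, and the Nfia start lies 190.8 kb before its gene, outside it as annotated there. Because NFI proteins bind TTGGC half-sites and the RPMS lines lack Stat3, whose protein binds elements of the form TTCNNNGAA, both were searched on both strands. The 3 windows shown hold every match to TTCNNNGAA and the only pair of half-sites; capitals mark the matches.
Nfix start at chr8:84775779-84776078, minus strand: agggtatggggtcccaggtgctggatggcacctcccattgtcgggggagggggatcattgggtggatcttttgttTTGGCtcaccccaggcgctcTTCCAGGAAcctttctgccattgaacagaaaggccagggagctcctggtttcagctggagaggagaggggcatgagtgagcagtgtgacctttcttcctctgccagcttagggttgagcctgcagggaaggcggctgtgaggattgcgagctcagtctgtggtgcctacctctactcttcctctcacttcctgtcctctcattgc
Nfix start at chr8:84772826-84773125, minus strand: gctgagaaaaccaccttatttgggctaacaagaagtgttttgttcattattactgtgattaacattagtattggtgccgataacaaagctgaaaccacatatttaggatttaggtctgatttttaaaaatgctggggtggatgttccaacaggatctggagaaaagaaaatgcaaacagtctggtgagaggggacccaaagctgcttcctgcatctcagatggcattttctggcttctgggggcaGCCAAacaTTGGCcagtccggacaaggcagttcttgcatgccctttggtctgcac
Nfic start at chr10:81427124-81427423, minus strand: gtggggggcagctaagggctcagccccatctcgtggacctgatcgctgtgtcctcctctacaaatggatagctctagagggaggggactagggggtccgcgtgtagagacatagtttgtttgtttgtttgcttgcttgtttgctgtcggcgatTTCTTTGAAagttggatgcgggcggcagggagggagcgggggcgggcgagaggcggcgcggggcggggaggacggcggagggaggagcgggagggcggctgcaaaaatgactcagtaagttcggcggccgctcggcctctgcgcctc
The first Nfix window holds TTGGC 175 bases and TTCCAGGAA 155 bases before the start, the latter also a match to the narrower TTCCNGGAA. The second Nfix window holds a half-site on each strand around the start, GCCAA before TTGGC, the reverse of their order in the NFI palindrome. The Nfic window holds TTCTTTGAA 97 bases before the start. Another Nfix window holds 1 half-site, and the Nfia window and the remaining Nfix window hold none of these letters. Over all 32851 windows, 46.7% hold TTGGC, 8.3% hold TTCNNNGAA (which includes every TTCCNGGAA), 1.15% hold TTCCNGGAA and 0.0365% hold the full palindrome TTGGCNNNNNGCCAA, which overlaps the half-site and was in none of the 6. The Nfic window had 24 CpG pairs and the Nfia window 2, beside a median of 7.

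RPMS lines from the liver were compared with RPMS lines from the lung, all in set 2, to ask whether NFI levels differ between the sites. None of the 4 members was called, and edgeR called 0% of the 14441 genes tested (650 at an unadjusted p under 0.05; DESeq2 called 52 genes and limma-voom 0). The groups overlapped for all 4 members, and did not for 2.56% of genes. Nfib was at 1129 CPM in CMV_228, 865 in CMV_231, 1046 in CMV_232 and 257 in CMV_252 of the lung lines, and at 783 CPM in CMV_273, 714 in CMV_341, 711 in CMV_343 and 790 in CMV_344 of the liver lines. The liver lines lay close together, the highest 1.11 times the lowest, while the lung lines spanned a ratio of 4.40. The means of 824 ± 394 and 750 ± 42.8 CPM (SD, n = 4 each) gave a log2 fold change of -0.14, with a 95% interval of -1.07 to 0.79 (edgeR adjusted p = 0.983).

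Nfix ranged most widely among the members with high levels. It stood at 937 CPM in CMV_228, 420 in CMV_231, 2508 in CMV_232 and 196 in CMV_252, and at 425 CPM in CMV_273, 1709 in CMV_341, 1045 in CMV_343 and 979 in CMV_344. The liver values all lay within the lung range, and the log2 fold change was 0.03 (95% interval -1.66 to 1.73, edgeR adjusted p = 0.997). Nfic was the steadiest in the lung lines, at 339 to 430 CPM there and 322 to 476 CPM in the liver lines, with a log2 fold change of -0.02 and the narrowest interval of the 4 (-0.45 to 0.42, edgeR adjusted p = 0.995). Nfia was at 16.2 CPM in CMV_228, 7.11 in CMV_231, 1.66 in CMV_232 and 65.0 in CMV_252, and at 24.1, 47.3, 48.7 and 19.9 CPM in liver lines CMV_273, CMV_341, CMV_343 and CMV_344. Its log2 fold change was 0.64 (95% interval -1.45 to 2.73, edgeR adjusted p = 0.966). The 2 lung lines at the ends of the Nfia range were also at the ends for Nfix, in the opposite order.

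Without CMV_252 the lung and liver lines no longer overlapped for Nfib, which was at 865 CPM or more in lung and at most 790 CPM in liver, or for Nfia, at most 16.2 CPM in lung and at least 19.9 CPM in liver. Of all genes tested without that line, 5.93% did not overlap. The log2 fold change was then -0.43 for Nfib (SE 0.17, 95% interval -0.81 to -0.04) and 2.08 for Nfia (SE 0.73, 95% interval 0.38 to 3.78). Neither passed over all genes (edgeR adjusted p = 0.835 for both), and again 0 genes were called. Summed fibroblast markers also separated these libraries, at 1.55 to 1.90 CPM in the 3 lung lines, with 4 or 5 of 10 markers at 0, and at 2.98, 133, 16.7 and 27.9 CPM in liver lines CMV_273, CMV_341, CMV_343 and CMV_344, with 0 to 3 at 0. Single genes carried much of the liver sums. Thy1 gave 10.1 CPM in CMV_343 and 15.9 CPM in CMV_344, and Pdgfra gave 2.17 CPM in CMV_273. In CMV_341 the top marker, Dcn, gave 37.2 CPM. The part of these markers in the Nfib and Nfia values was not tested.

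**Figure D2:**
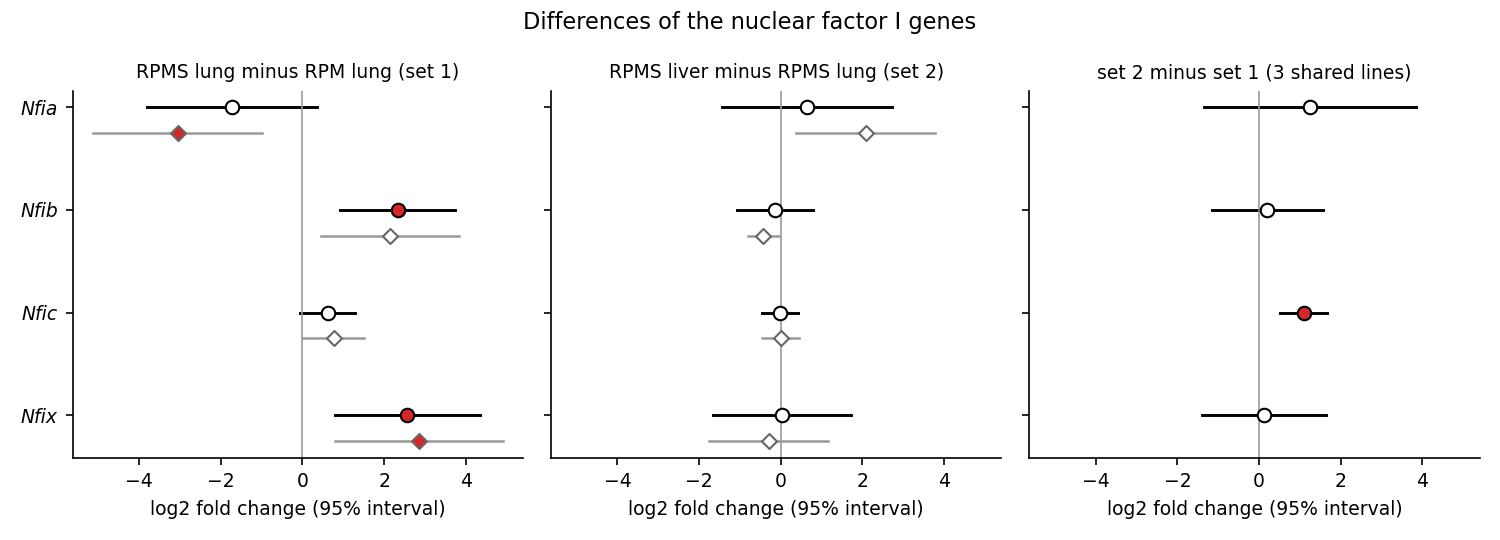
Log2 fold change with its 95% interval for each NFI gene in the genotype comparison (set 1), the liver against lung comparison (set 2) and the comparison of the tables in the 3 shared lines; circles use all libraries, grey diamonds, in the genotype and liver panels, leave out line CMV_252, and red fill marks an edgeR adjusted p under 0.05. Nfib (2.34) and Nfix (2.57) pass in the genotype comparison, Nfic (1.09) in the comparison of the tables, and no member passes between liver and lung.

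Lines CMV_228, CMV_231 and CMV_252 were sequenced in both sets, which shows how far a member's level moved between libraries of the same line. The labels do not say what differed between the sets. Nfic was higher in set 2 in all 3 lines, by ratios of 2.10, 1.91 and 2.49, from 192 ± 32.6 to 409 ± 16.4 CPM (SD, n = 3 each), a log2 difference of 1.09 (SE 0.24, adjusted p = 0.0239 in edgeR); 15.9% of the 16282 genes tested were called. That is larger than the 0.62 between RPMS and RPM in set 1. Nfia was also higher in set 2 in each line, by ratios of 2.70, 2.20 and 2.34, with a log2 fold change of 1.25 (edgeR adjusted p = 0.529), and passed with the line number as a block (1.26, edgeR adjusted p = 0.0470).

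Nfib went both ways. It was 1.83 times as high in set 2 in CMV_228 and 1.76 times in CMV_231, but 3.30-fold lower in CMV_252, from 827 to 251 CPM on the joint scale. The log2 fold change over the 3 lines was 0.21 (SE 0.56, edgeR adjusted p = 0.863). It was 0.86 without CMV_252 (edgeR adjusted p = 0.0495), a fit with 4 libraries in which 4730 of 16636 genes tested were called. In CMV_252 the summed neuroendocrine markers fell alongside, as given above, and their part in the Nfib level was not tested. Nfix changed by ratios of 1.30 in CMV_228, 0.993 in CMV_231 and 0.684 in CMV_252, a log2 difference of 0.12 (SE 0.63, adjusted p = 0.933 in edgeR).

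**Figure D3:**
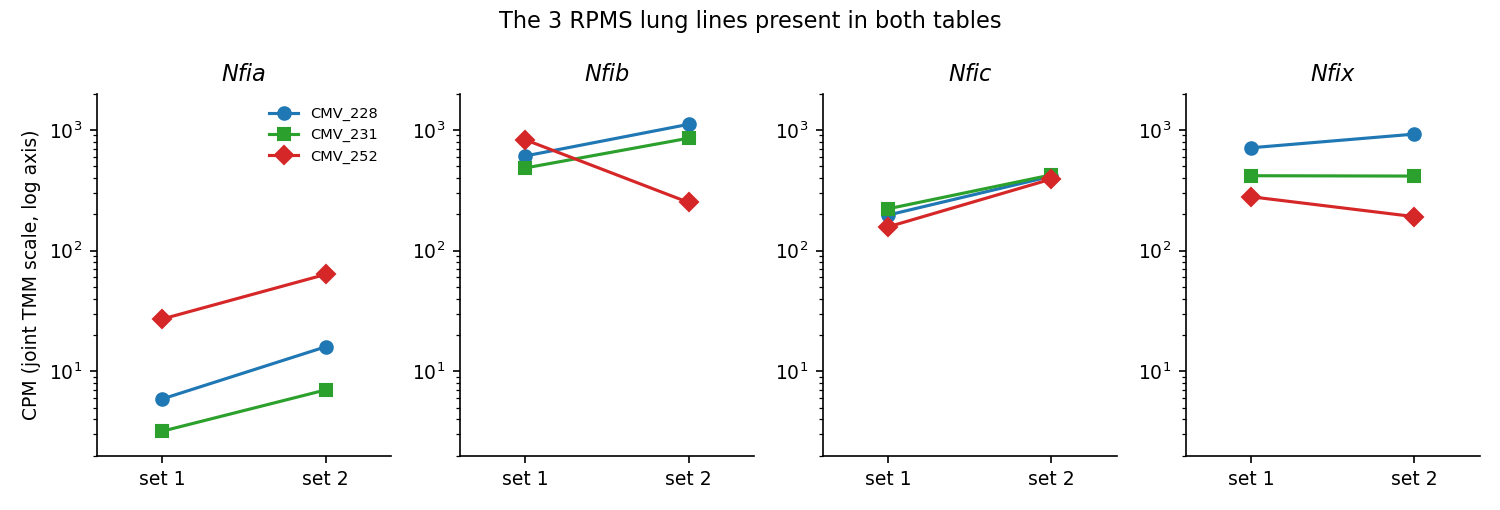
CPM (log axis, libraries of both sets scaled together) of each NFI gene in lines CMV_228, CMV_231 and CMV_252, each joined from set 1 to set 2. All 3 lines rise for Nfic and Nfia, and for Nfib CMV_252 falls from 827 to 251 CPM while CMV_228 rises from 608 to 1111 CPM.

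Levels can be compared between members only per length, as CPM per kilobase of annotated exon. Nfia was the lowest member in all 15 libraries. In the RPM libraries Nfic led, at 18.5 ± 5.76 CPM per kb (SD, n = 4), followed by Nfix at 10.6 ± 9.94, Nfib at 8.18 ± 5.45 and Nfia at 3.46 ± 2.27. The ranges of Nfic and Nfix overlapped, as did those of Nfix and Nfib and of Nfib and Nfia. In the RPMS lung libraries of set 1 the order was Nfix at 62.7 ± 31.2, Nfib at 41.3 ± 9.53, Nfic at 28.3 ± 5.81 and Nfia at 1.04 ± 1.09 CPM per kb (n = 3), with overlap between Nfix and Nfib and between Nfib and Nfic.

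In set 2, Nfix was at 138 ± 142 CPM per kb in lung and 141 ± 71.5 in liver lines (SD, n = 4 each). Nfic followed at 60.0 ± 6.12 and 59.2 ± 10.2, Nfib at 55.1 ± 26.3 and 50.1 ± 2.86, and Nfia at 2.07 ± 2.66 and 3.21 ± 1.39. Nfix was the highest member in 3 of 4 liver lines, and Nfic in CMV_273. Among the lung lines Nfix was the highest in CMV_228 and CMV_232, and Nfic in CMV_231 and CMV_252. With the longest transcript in place of all exons, the mean of Nfib in set 2 rose above that of Nfic (90.4 against 63.7 CPM per kb in lung, 82.2 against 62.9 in liver), so the order of these members depends on the isoform assumed. Nfia was the lowest under both lengths.

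The composition of the family also differed between the libraries. Nfic made up 37.4% to 68.5% of the summed level per kb in the RPM libraries and 17.7% to 27.3% in set 1 RPMS. Nfia made up 4.87% to 11.9% in RPM and 0.239% to 2.08% in set 1 RPMS. In set 2 the share of Nfix ran from 24.1% in CMV_252 to 73.8% in CMV_232 among lung lines and from 33.0% to 69.8% among liver lines. The sum over the family was 21.5 to 67.0 CPM per kb in RPM, 110 to 167 in set 1 RPMS, 110 to 462 in set 2 lung and 175 to 333 in liver lines.

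**Figure D4:**
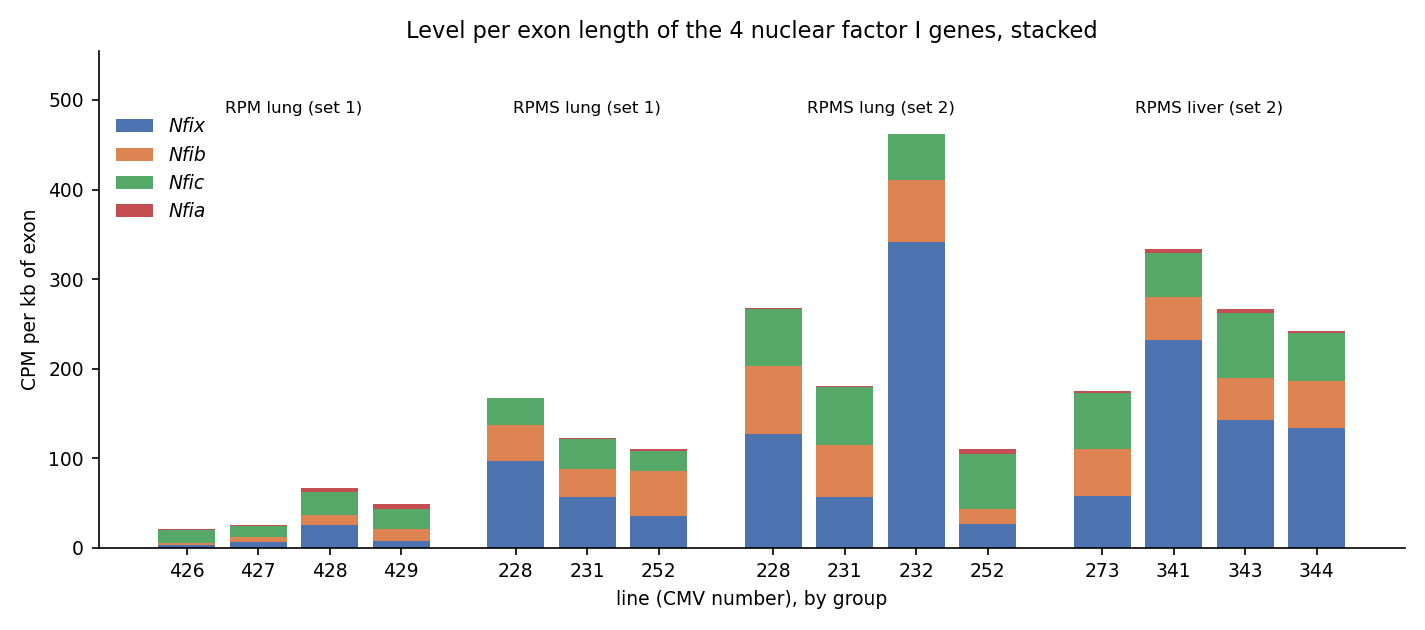
Stacked level per exon length (CPM per kb) of Nfix, Nfib, Nfic and Nfia in each of the 15 libraries, by line number and group. The stacks reach 21.5 to 67.0 in the RPM libraries and 110 to 462 in the RPMS libraries, and CMV_232 carries the tallest stack through Nfix, at 341.2 CPM per kb.

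Genes near each member were examined because mouse small cell lung cancers recurrently amplify the stretch of chromosome 4 that holds Nfib. Within 1 Mb of Nfib, 3 of 11 tested genes were higher and 1 lower in RPMS than in RPM lung lines, 36.4% called beside 30.6% of all genes. Psip1, which encodes the chromatin reader LEDGF and starts at -781 kb from the Nfib start (negative is upstream), had RPM levels of 140 to 279 CPM and RPMS levels of 568 to 716 CPM, a log2 difference of 1.59 (SE 0.27, adjusted p = 0.00694 in edgeR). Cer1, a secreted antagonist of Nodal, BMP and Wnt ligands at -179 kb, had 0 counts in all RPM libraries and was at 61.1 CPM in CMV_228, 57.3 in CMV_231 and 1.24 in CMV_252. Against a floor of 3 counts per library, its RPMS mean was at least 340-fold higher (edgeR adjusted p = 0.0230).

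Frem1, an extracellular matrix gene at -347 kb, also had 0 counts in RPM and was at 0.888 to 5.31 CPM in RPMS, at least 21.6-fold higher (edgeR adjusted p = 0.0150). The pseudogene Gm10154, at -800 kb, fell from 52.7 to 13.3 CPM (log2 fold change -1.99, edgeR adjusted p = 0.0345), and its reads may be shared with similar sequences elsewhere. Zdhhc21, a palmitoyltransferase gene and the tested coding gene closest upstream of Nfib, spanned 46.2 to 55.1 CPM in RPM against 65.7 to 87.1 CPM in RPMS lines, without overlap (edgeR adjusted p = 0.0506). Mpdz, a scaffold protein gene downstream of Nfib, was at 45.6 and 89.3 CPM on average (edgeR adjusted p = 0.251). Copy number was not measured. Without CMV_252, 3 neighbours were higher and 2 lower of 11 tested, where 38.1% of all genes were called.

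Gm11266 is annotated as antisense inside Nfib, on the plus strand. It was at 0 counts in CMV_426 and CMV_427, 1.44 CPM in CMV_428 and 0.832 in CMV_429, and at 14.8, 11.2 and 6.44 CPM in CMV_228, CMV_231 and CMV_252 (edgeR adjusted p = 0.0747). The library kit was stranded per the labels, but the strand setting of the counting is not given in the sources used here, so reads of Gm11266 and Nfib may not be told apart. Its level was small beside that of Nfib in every library. Lyl1, a blood-lineage transcription factor gene that overlaps Nfix on the plus strand, ran opposite to Nfix, its mean falling from 33.0 CPM in RPM lines to 0.467 CPM (log2 difference -6.13, adjusted p = 0.00356 in edgeR). Within 1 Mb of the other members, 0 of 6 tested genes were called near Nfia. Near Nfic 15 were higher and 4 lower of 87 (21.8%), and near Nfix 8 higher and 14 lower of 61 (36.1%). Of all genes tested, 30.6% were called, 14.9% as higher and 15.7% as lower. Between liver and lung, 0 genes near any member were called, where edgeR called 0 of all 14441 genes tested. Near Nfix, 12 of 57 tested genes had an unadjusted edgeR p under 0.05, beside 650 of all genes tested. The median log2 fold change of the genes near Nfix was -0.73, beside -0.02 for all genes. Near Nfic 3 of 78 had such a p, near Nfia 1 of 7 and near Nfib 0 of 9.

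**Figure D5:**
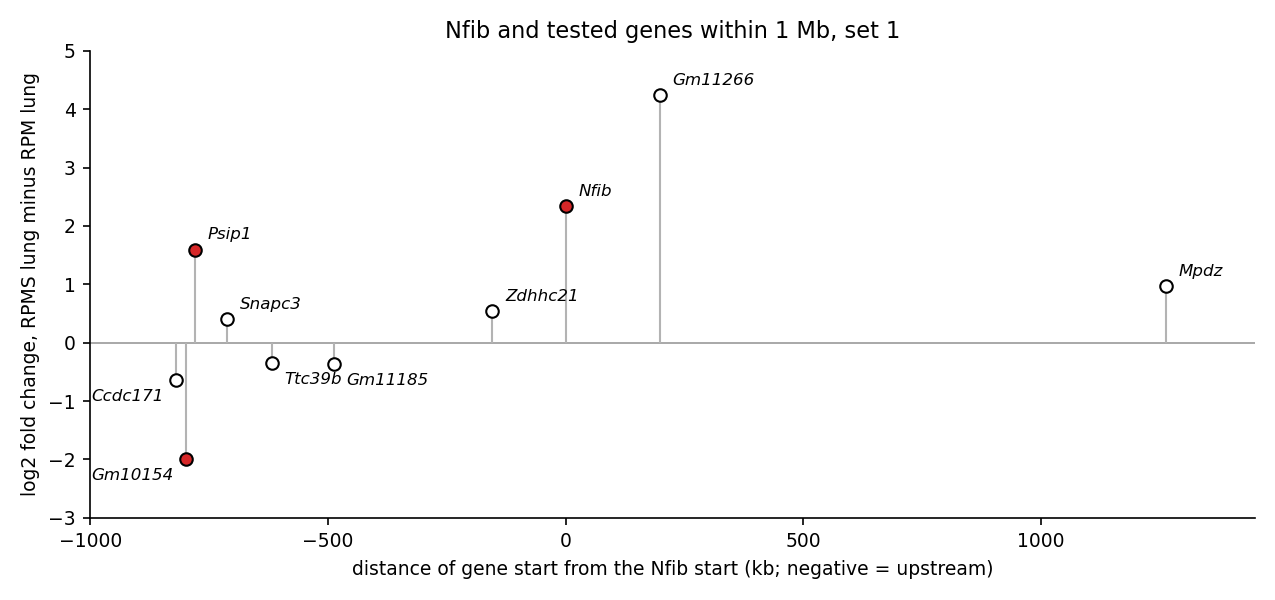
Log2 fold change of RPMS over RPM lung lines in set 1 for Nfib and 9 of the 11 tested genes within 1 Mb, against the distance in kb of each gene's start from the Nfib start; red fill marks an edgeR adjusted p under 0.05. Cer1 and Frem1 are left out because their RPM counts are 0, and Psip1 (1.59) and Gm10154 (-1.99) pass beside Nfib (2.34).

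A list of 18 genes reported to be regulated by NFI proteins in mouse or human tissues, mostly in brain, was described next. Of its 11 tested members in the genotype comparison, 3 were higher, 3 lower and 5 not called, 54.5% called beside 30.6% of all genes, with a median log2 fold change of -1.18. Ephb1, an ephrin receptor gene, had 0 counts in RPM and was at 4.33, 21.4 and 39.8 CPM in the RPMS lines, at least 186-fold higher against the floor (edgeR adjusted p = 0.00960). Ezh2, the polycomb methyltransferase gene that NFI proteins are known to repress in developing mouse brain, spanned 52.0 to 90.9 CPM in RPM lines and reached 129 to 153 CPM without Stat3 (log2 difference 1.06, adjusted p = 0.0124 in edgeR). The ranges of both genes did not overlap between the groups.

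Cdkn1a, the gene of the cell cycle inhibitor p21, rose from 11.1 to 34.1 CPM over the RPM lines to a range of 61.0 to 100.3 CPM (log2 difference 1.75, adjusted p = 0.0165 in edgeR). Sox9, a glial and lung progenitor factor, had 13.3 to 37.0 CPM in the RPM lines and at most 1.90 CPM in the others (log2 difference -5.02, adjusted p = 0.00980 in edgeR). Hes1, a Notch effector, and Bbx, a DNA-binding protein gene, were the other members that fell, to means of 1.07 and 63.2 CPM in RPMS. So genes of this list moved in both directions, and without CMV_252 3 rose and 3 fell of 14 tested, where 38.1% of all genes were called. Between liver and lung none of 11 tested members was called, with a median of 0.66 beside -0.02 for all genes.

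Of 8 factors reported to act with NFI proteins, 7 were tested in the genotype comparison, and 1 was higher, 3 were lower and 3 were not called (57.1% called, beside 30.6% of all genes). Smarca4, the ATPase of a chromatin remodelling complex, ranged from 163 to 240 CPM in RPM lines and stood at 530 CPM in CMV_228, 576 in CMV_231 and 239 in CMV_252 (log2 fold change 1.22, edgeR adjusted p = 0.0285). The CMV_252 library lay within the RPM range. Sox9, also on this list, Nr3c1, the glucocorticoid receptor gene (104 to 43.9 CPM, edgeR adjusted p = 0.0308), and Ski, a repressor of TGF-beta signalling (124 to 72.2 CPM, adjusted p = 0.0491), fell. The median log2 fold change of the list was 1.22: the 3 factors not called had higher means in RPMS, as had Smarca4, while 3 of the 4 called factors fell. Without CMV_252, 1 was called higher and 1 lower of 8 tested, where 38.1% of all genes were called. The lung lineage factors Foxa1 and Nkx2-1 had means of 56.3 and 51.6 CPM in RPM lines, against 251 and 203 CPM, and were not called (edgeR adjusted p = 0.0875 and 0.0910). Between liver and lung none of 8 tested factors was called, with a median of 0.11.

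The genes whose pattern over libraries was most like each member's were ranked by the lower of the Pearson correlations of log2 CPM in set 1 (n = 7) and set 2 (n = 8), among 10492 genes. For Nfib they were Sfxn1, Ubox5, Pfn2, Fam78b and Bmi1, with lower correlations of 0.936 to 0.949. The set 1 values include the difference between RPM and RPMS, and the set 2 values rest on CMV_252: without that line they were 0.376 for Bmi1 to 0.722 for Sfxn1 in set 2. For Nfia they were Pigl, Rdh14 and Uvssa (0.838 to 0.884), for Nfic Nacad, Ptpdc1 and Blmh (0.820 to 0.868), and for Nfix Zfp13, Mmaa and Fxyd6 (0.896 to 0.902). Without CMV_252 the correlations of these 9 genes were 0.798 or more in both sets. That is no separate check, because the genes were picked for high correlations over these same libraries.

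Within the family, Nfib and Nfix were the most alike, at 0.905 in set 1 and 0.677 in set 2, though 0.172 in set 2 without CMV_252. Nfia and Nfib correlated at -0.30 in set 1 and -0.63 in set 2, and at -0.44 and -0.72 without CMV_252. The set 1 values of all pairs include the difference between RPM and RPMS. Within RPM, both Nfia and Nfib were lower in CMV_426 and CMV_427 than in CMV_428 and CMV_429. Within set 1 RPMS, both were lowest in CMV_231 and highest in CMV_252. Nfic and Nfix were at 0.864 in set 1 and -0.52 in set 2. These correlations share libraries and their scaling and are descriptions.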

How the data were processed

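RNA-seq libraries of 15 cultured mouse lines were analysed from 2 tables of read counts per gene that the authors deposited; the counts are whole numbers without normalization. HISAT2, StringTie and GRCm38 are named per the submitters' processing notes; which step each did, their versions and whether counting used strand are not given in the sources used here. Every column was matched to a sample by its title. Set 2 has 1832 records without a name, which were left out; they hold 0.0569% to 0.0799% of each library.

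The tables were tested separately in R 4.3.3 with edgeR 4.0.16: default expression filter, TMM factors and the two-sided quasi-likelihood test at an adjusted p of 0.05. The tests were also tried on simulated counts. Standard errors were derived from each gene's F statistic. Exon lengths, positions and neighbours within 1 Mb came from GENCODE M21, promoters from RefSeq. A count of 3 equals 0.0957 to 0.118 CPM in set 1 and 0.163 to 0.317 CPM in set 2, a bound for counting error only. Same-numbered lines of both sets are the same line per the titles. Their deviations from the set means correlated at 0.428 (CMV_228), 0.497 (CMV_231) and 0.526 (CMV_252) over 16282 genes. CMV_228 of set 1 with CMV_231 of set 2 was at 0.317, and the reverse pair at 0.208. Pairs of CMV_252 with another line were at -0.493 to -0.378. Each line was most like its own number, by a small margin for CMV_228, and the line number was used to pair them.

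Alternatives were DESeq2 1.42.0, limma-voom (limma 3.58.1), other scaling factors (upper-quartile, relative log expression), a robust fit, testing with no filter or with a minimum of 10 counts, leaving out each library, the line as a block, CPM without TMM factors and the longest transcript as length. Counts of list and neighbour genes and likeness without CMV_252 were added after seeing the data. Named were the 4 members, Stat3, Rb1, Trp53 and Myc, up to 4 genes of smallest p of each list and of the Nfib neighbours, and the 5 or 3 genes most like a member (mean of at least 5 CPM, prior count of 2); Hes1, Bbx, Zdhhc21, Mpdz, Gm11266, Lyl1, Foxa1, Nkx2-1 and further marker genes were added after their values were seen. The members and lists were chosen with earlier results of these data known.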

Additional observations from a re-analysis of the deposited data

Results flagged for a closer look

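Each value here lay so far from the other 3 libraries of its group that its gap to the nearest one exceeded Dixon's critical value of 0.829 of the group's range; chance gives this in about 1 in 20 groups, and 45 groups were checked. No NFI gene was among them. In the RPM group, CMV_428 had summed endothelial markers of 333 CPM, against at most 37.1 CPM in the others. Kdr gave 331 CPM of it, and Cdh5 and Emcn had 0 counts there. CMV_429 had summed epithelial markers of 646 CPM, against at most 53.6 CPM, of which Krt8 gave 545.9 CPM, with Epcam, Cldn4 and Cldn7 at 0 counts. Among the set 2 lung lines, CMV_252 had summed endothelial markers of 7.30 CPM (nearest 1.74), of which Kdr gave 6.38 CPM, and summed fibroblast markers of 10.2 CPM (nearest 1.90), and CMV_232 had summed hepatocyte markers of 3.78 CPM (nearest 1.52), of which Tat gave 3.49 CPM. Among the liver lines, CMV_344 had summed endothelial markers of 6.91 CPM (nearest 2.17), and CMV_343 had Rb1 at 161.7 CPM (nearest 68.6), a gene the labels give as deleted. CMV_344 was also the library with the fewest counts (9453715) and the most genes with counts (30341). Their part in its marker sums was not tested.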

How the results depend on the processing

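The directions of the 4 members between RPMS and RPM lung were the same under all alternatives run. Nfix missed the threshold with no filter (log2 fold change 2.57, edgeR adjusted p = 0.0589), where more genes were tested. Leaving out 1 library gave 2.04 to 2.70 for Nfib, 2.12 to 3.45 for Nfix, 0.49 to 0.80 for Nfic and -3.06 to -1.28 for Nfia, and 2896 to 7076 called genes (2896 without CMV_228, 3103 without CMV_231). Between liver and lung, 52 genes were called by DESeq2 and 2 with no filter. Signs of values near 0 reversed there: Nfib was 0.080 with limma-voom, Nfic 0.013 with upper-quartile factors and Nfix -0.022 with no filter. Leaving out 1 library gave -0.43 to 0.041 for Nfib, -0.13 to 0.063 for Nfic, -0.32 to 1.00 for Nfix and 0.25 to 2.08 for Nfia, with 0 to 0 called genes. The cause was not tested.

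Between the sets, the paired fit with the line as a block turned Nfix to -0.060 and raised Nfia past the threshold (1.26, edgeR adjusted p = 0.0470), called 2550 genes against 2593, and changed no other member's call. Leaving out a line gave 0 to 4730 called genes (0 without CMV_228 or CMV_231, 4730 without CMV_252), with 1.01 to 1.21 for Nfic, which lost its call without CMV_228 (1.12) or CMV_231 (1.21), -0.23 and -0.048 for Nfib without these lines and 0.86 without CMV_252, -0.18 to 0.25 for Nfix and 1.22 to 1.34 for Nfia; these fits have 4 libraries. CPM without TMM factors stayed within 1 SD for all members. With the longest transcript the Nfib level per kb moved to 67.7 (set 1 RPMS), 90.4 (set 2 lung) and 82.2 (liver). Without CMV_252 the share of all genes called between RPMS and RPM lung rose from 30.6% to 38.1%. Called fibroblast markers went from 6 of 8 tested to 3 of 10, with 1 of them higher in RPMS both times. Hepatocyte markers went from 2 of 2 to 1 of 2, partner factors from 4 of 7 to 2 of 8 and endothelial markers from 0 of 2 to 1 of 2.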
